A study of Mus musculus with 4 samples.

Results

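The data were read for 10 genes of T cell costimulation in bone marrow T cells after an allogeneic transplant. They are the CD28 family receptors Cd28 and Icos, the TNF receptor family members Tnfrsf4 (OX40), Tnfrsf9 (4-1BB), Tnfrsf18 (GITR) and Cd27, and the TNF family ligands Cd40lg, Tnfsf8 (CD30 ligand), Tnfsf11 (RANK ligand) and Tnfsf14 (LIGHT). The 10 genes were taken by symbol from the 32285 genes of the RNA table, and 80 of 148283 ATAC peaks overlapped one of them or lay within 10 kb of it on the mouse build GRCm38.

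All mice were C57BL/6 recipients, and their C3H.SW donors gave 5000000 bone marrow cells, 500000 CD4 T cells and 500000 CD8 T cells. In the PT-Cy group the recipients also received cyclophosphamide, an alkylating drug that kills dividing cells, at 50 mg/kg on days 3 and 4. The alloBMT group had the transplant alone. On day 14, T cells from the marrow of 4 pooled mice per group went into 1 multiome assay, in which RNA and open chromatin (ATAC) are read in the same nuclei, so each group has 1 RNA and 1 ATAC library and no replicate. The labels do not say whether a T cell came from the donor or the recipient.

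The authors' per-cell table divides the cells into a CD4 set and a CD8 set, each with numbered clusters. The CD4 set held 284 PT-Cy and 926 alloBMT cells with 1264107 and 3027967 RNA molecules (UMIs), and the CD8 set held 512 and 1865 cells, whose RNA is not analysed here. ATAC counts came to 1538967 in PT-Cy and 6974362 in alloBMT CD4 cells, and to 3117872 and 16605930 in CD8 cells. All 6 T cell markers were detected in both CD4 libraries. Cd8a had no UMI in either, although Cd8b1, its partner chain, stood at 131 CPM in PT-Cy and 100.1 CPM in alloBMT CD4 cells. The libraries shared 2 cell barcodes. Most PT-Cy CD4 cells, 238 of 284, were in cluster 2, against 42 of 926 alloBMT cells, and clusters 0 and 1 held 4 and 0 PT-Cy cells against 374 and 320 alloBMT cells. With 1 library per group no test was possible: levels are given as counts scaled to a common total per set of cells (CPM), differences as the log2 of PT-Cy over alloBMT, and every interval is an exact 95% one for counting error alone. PCR duplicates and the spread between animals are outside these intervals.

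T cells need a second signal beside their antigen receptor, and CD28, which binds CD80 and CD86 on antigen-presenting cells, gives the classical one. ICOS follows on activated and follicular helper T cells. Receptors of the TNF family such as OX40, 4-1BB, GITR and CD27 recruit TRAF adaptors and switch on NF-kB, while activated CD4 T cells display ligands of the same family, above all CD40 ligand, to B cells and dendritic cells. After an allogeneic transplant these pairs are studied as signals for graft-versus-host disease, and OX40 and GITR are known as abundant on regulatory T cells.

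The bases before the transcription start are shown for the genes on which the results turn: Tnfsf11 and Tnfsf8, ligands that differ in how CD4-restricted their chromatin was, Tnfrsf9, which has 2 annotated starts, and the neighbours Tnfrsf4 and Tnfrsf18. Each is the 250 bases upstream of a RefSeq start (GRCm38.p6), read 5′ to 3′ on the gene's strand, with matches to the searched motifs in capitals. The stretches are chr14:78308044-78308293 (minus strand) for Tnfsf11, chr4:63861285-63861534 (minus) for Tnfsf8, chr4:150919905-150920154 and chr4:150927749-150927998 (plus) for the upstream and the internal start of Tnfrsf9, chr4:156013445-156013694 (plus) for Tnfrsf4 and chr4:156026072-156026321 (plus) for Tnfrsf18.
Tnfsf11: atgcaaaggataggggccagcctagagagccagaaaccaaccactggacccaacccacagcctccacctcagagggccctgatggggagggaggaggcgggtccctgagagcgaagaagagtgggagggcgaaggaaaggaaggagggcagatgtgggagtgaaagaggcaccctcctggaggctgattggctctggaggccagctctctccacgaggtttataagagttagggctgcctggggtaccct
Tnfsf8: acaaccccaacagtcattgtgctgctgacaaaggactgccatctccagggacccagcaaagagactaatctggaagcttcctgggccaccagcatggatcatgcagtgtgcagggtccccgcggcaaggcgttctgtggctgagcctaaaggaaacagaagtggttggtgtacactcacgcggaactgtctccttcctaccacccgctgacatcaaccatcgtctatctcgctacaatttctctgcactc
Tnfrsf9, upstream start: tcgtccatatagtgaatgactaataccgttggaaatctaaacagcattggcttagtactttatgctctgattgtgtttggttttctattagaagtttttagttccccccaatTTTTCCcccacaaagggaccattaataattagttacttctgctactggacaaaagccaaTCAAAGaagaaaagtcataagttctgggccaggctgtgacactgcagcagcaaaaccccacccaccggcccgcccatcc
Tnfrsf9, internal start: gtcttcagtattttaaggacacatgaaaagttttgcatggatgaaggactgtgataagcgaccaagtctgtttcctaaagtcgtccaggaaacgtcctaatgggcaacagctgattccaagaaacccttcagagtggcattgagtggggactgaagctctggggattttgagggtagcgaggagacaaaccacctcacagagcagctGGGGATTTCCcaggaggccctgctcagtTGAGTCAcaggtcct
Tnfrsf4: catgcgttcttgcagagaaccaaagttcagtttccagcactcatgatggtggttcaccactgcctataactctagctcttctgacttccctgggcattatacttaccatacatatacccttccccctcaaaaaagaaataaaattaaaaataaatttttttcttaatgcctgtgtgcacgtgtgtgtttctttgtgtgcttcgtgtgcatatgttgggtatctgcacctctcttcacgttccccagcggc
Tnfrsf18: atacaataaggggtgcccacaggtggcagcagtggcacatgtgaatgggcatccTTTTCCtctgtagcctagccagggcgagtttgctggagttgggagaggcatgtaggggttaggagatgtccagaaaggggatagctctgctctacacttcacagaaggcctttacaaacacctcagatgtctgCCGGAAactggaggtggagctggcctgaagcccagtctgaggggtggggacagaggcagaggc

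RefSeq starts were listed for 7 of the 10 genes, 8 starts in all, and Cd28, Icos and Cd40lg were not among them. At 7 of the 8 starts the upstream bases overlapped a peak, the upstream start of Tnfrsf9 being the other one. The internal Tnfrsf9 start lay in an open peak and had an AP-1 motif (TGANTCA, found in 6.75% of 32851 mouse promoters of this length) 15 bases before the start. Both NF-kB motifs, GGGNNTTCC (4.98% of promoters) and the form with 3 N in place of 2 (4.65%), also matched there, overlapping each other 42 and 43 bases before the start. The upstream Tnfrsf9 start had an NFAT motif (GGAAAA, 20.4% of promoters) and a TCF/LEF motif (CTTTGA, 13.8%), both on the other strand. Tnfrsf18 had an NFAT motif and an ETS motif (CCGGAA, 12.0%). Tnfsf14, not printed, also had AP-1, and Cd27, not printed, had NFAT. No letters of the searched motifs, which also included RUNX (TGTGGT, 14.0%) and NR4A (AAAGGTCA, 1.34%), were found in the windows of Tnfsf8, Tnfsf11 and Tnfrsf4. All motifs were searched on both strands, and a match describes the letters only.

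Among CD4 cells, the ligands Cd40lg and Tnfsf8 took a larger share of the RNA in PT-Cy than in alloBMT cells, the receptors Icos, Tnfrsf4 and Tnfrsf18 were also higher, and Cd27 was lower. Tnfsf11 and Tnfsf14 had too few UMIs to be counted with them, under 100 each over both libraries. Of the 8 genes whose UMIs reached 100 over both libraries, 1 was at least 2-fold higher in PT-Cy, against 4.93% of 6285 genes at that depth, and 0 were 2-fold lower, against 2.88%. At 1.5-fold, 5 of the 8 were higher, against 12.5% of all genes, and 1 was lower, against 9.50%. The median log2 ratio of the 8 was 0.82, beside 0.02 for all 6285 genes. Over all 10, the interval lay above 0 for 7 genes and below 0 for 2. How often the interval excludes 0 over all genes is not reported here, so this count is a description only. Scaling by TMM factors in place of total UMIs lowered every RNA log2 ratio by 0.13 and turned no direction among the 10.

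Cd28 had 956 UMIs (756 CPM) in PT-Cy CD4 cells and 2695 UMIs (890.0 CPM) in alloBMT CD4 cells, a log2 ratio of -0.23 (interval -0.34 to -0.13). The receptor was detected in 73.4% of PT-Cy and 76.1% of alloBMT cells after every cell had been thinned to 1981 UMIs, which kept 259 and 830 cells and left out 25 and 96. Icos had 490 UMIs (388 CPM) in PT-Cy and 602 UMIs (199 CPM) in alloBMT cells, a log2 ratio of 0.96 (0.79 to 1.14). Its RNA was found in 43.6% of thinned PT-Cy cells and 28.1% of thinned alloBMT cells, so for these related receptors the library with less Cd28 had more Icos.

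Tnfrsf4 had 125 UMIs (98.9 CPM) in PT-Cy and 182 UMIs (60.1 CPM) in alloBMT cells, a log2 ratio of 0.72 (0.38 to 1.05). Tnfrsf18 had 260 UMIs (206 CPM) in PT-Cy and 329 UMIs (109 CPM) in alloBMT cells, a log2 ratio of 0.92 (0.68 to 1.16). Tnfrsf18 was detected in 29.0% of thinned PT-Cy and 20.1% of thinned alloBMT cells. These receptors, both high on regulatory T cells, remained higher in PT-Cy when cluster 4, which holds most of the Foxp3 RNA, was left out. The log2 ratios were then 0.57 for Tnfrsf4 and 0.75 for Tnfrsf18. Cluster 2 still held 29.5% of the PT-Cy Foxp3 UMIs (12.4 CPM), against 2.64 and 5.29 CPM in alloBMT clusters 0 and 1. Il2ra, another regulatory T cell marker, stood at 111 CPM in PT-Cy cluster 2 and at 2.64 and 0.88 CPM in those alloBMT clusters. In alloBMT cluster 2, Foxp3 stood at 5.35 CPM from 1 UMI (interval 0.14 to 29.8) and Il2ra at 32.1 CPM. The Foxp3 level of PT-Cy cluster 2 lies inside that interval. Regulatory T cell markers did not move together over all CD4 cells. Foxp3 (log2 ratio 1.33), Il2ra (2.57) and Ikzf2 (1.29) were higher in PT-Cy, while Ctla4 (-0.70) and Il10 (-2.21) were lower. The part of regulatory T cells in the Tnfrsf4 and Tnfrsf18 ratios was not tested.

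Tnfrsf9, an activation-induced receptor, had 217 UMIs (172 CPM) in PT-Cy and 600 UMIs (198 CPM) in alloBMT cells, a log2 ratio of -0.21 (-0.44 to 0.02). It was detected in 23.6% of thinned cells of both libraries, so a difference was not detectable at this depth. Cd27, a receptor of naive and early memory T cells whose ligand is CD70, had 192 UMIs (152 CPM) in PT-Cy and 800 UMIs (264 CPM) in alloBMT cells. Its log2 ratio was -0.80 (-1.03 to -0.57), 1.74-fold lower in PT-Cy, and it was detected in 23.2% of thinned PT-Cy and 40.4% of thinned alloBMT cells. Cd27 overlaps the annotated transcript E130112N10Rik and Tnfrsf18 overlaps Gm16008, and reads of overlapping genes cannot be told apart where counting ignores strand, and the sources used here do not say whether it did.

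Cd40lg, the ligand through which helper T cells license B cells and dendritic cells, had 188 UMIs (149 CPM) in PT-Cy and 235 UMIs (77.6 CPM) in alloBMT cells. Its log2 ratio was 0.94 (0.65 to 1.22), with RNA in 27.4% of thinned PT-Cy and 12.2% of thinned alloBMT cells. Tnfsf8 had 257 UMIs (203 CPM) in PT-Cy and 282 UMIs (93.1 CPM) in alloBMT cells, a log2 ratio of 1.13 (0.88 to 1.38), and was the only one of the 8 past 2-fold. TMM scaling put it at 0.99, under 2-fold. Its RNA was found in 22.8% of thinned PT-Cy and 7.35% of thinned alloBMT cells. Before thinning, 99 PT-Cy cells held a mean of 2.596 Tnfsf8 UMIs each, and 82 alloBMT cells held 3.44 each, with highest values of 13 and 21. In both libraries 16 cells had at least 5 Tnfsf8 UMIs, and these cells held 49.4% of the PT-Cy and 56.7% of the alloBMT UMIs of the gene, so its RNA was concentrated in few cells.

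The other ligands were scarce. Tnfsf11, the osteoclast-inducing RANK ligand, had 41 UMIs in 27 PT-Cy cells (32.4 CPM) and 30 UMIs in 18 alloBMT cells (9.91 CPM), a log2 ratio of 1.71 (0.996 to 2.44). Tnfsf14, which binds HVEM and the lymphotoxin β receptor, had 21 UMIs in 18 PT-Cy cells (16.6 CPM) and 17 UMIs in 17 alloBMT cells (5.61 CPM), a log2 ratio of 1.57 (0.57 to 2.58). Both were under the minimum of 100 UMIs and were not counted among the genes past 2-fold.

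Markers of other blood cells and of division moved with the same comparison. All 6 neutrophil markers were higher in PT-Cy, with summed levels of 249.98 CPM in PT-Cy and 31.0 CPM in alloBMT CD4 cells and none at 0. All 4 erythroid markers summed to 841 and 209 CPM, all 5 myeloid markers to 195 and 35.3 CPM, and the 6 division markers to 2185 and 542 CPM. The 6 B and plasma cell markers summed to 36.4 CPM in PT-Cy and 13.2 CPM in alloBMT, with Jchain at 0 in both, the 4 NK markers to 92.6 and 132 CPM, and the T cell markers to 2984 and 3953 CPM. The 5 regulatory T cell markers summed to 2025 CPM in PT-Cy and 1190 CPM in alloBMT cells, with 3 of the 5 higher in PT-Cy. S100a9, which T cells do not make, had a UMI in 7.34% of thinned PT-Cy and 1.81% of thinned alloBMT cells, and Hbb-bs in 49.0% and 20.5%. Shares of cells with Tnfsf11 (4.25% in PT-Cy and 1.33% in alloBMT) and Tnfsf14 (4.25% and 1.08%) were below those of S100a9, and no difference in the share of expressing cells is read from them. Inside PT-Cy the erythroid markers summed to 591 CPM in cluster 4 and 910.5 CPM in cluster 2, and the neutrophil markers to 78.3 and 262 CPM. The NK sum was also lower in cluster 4 (14.2 and 103 CPM). The myeloid sum (207 and 198 CPM) and the B and plasma cell sum (64.1 and 33.4 CPM) were not. Tnfsf8 stood at 21.4 CPM in cluster 4 and 227 CPM in cluster 2, lower in cluster 4 like some of these sums but not all. Tnfrsf18 stood at 477 and 174 CPM, higher in cluster 4. The part of free RNA in these levels and in the ratios between libraries was not tested.

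**Figure D1:**
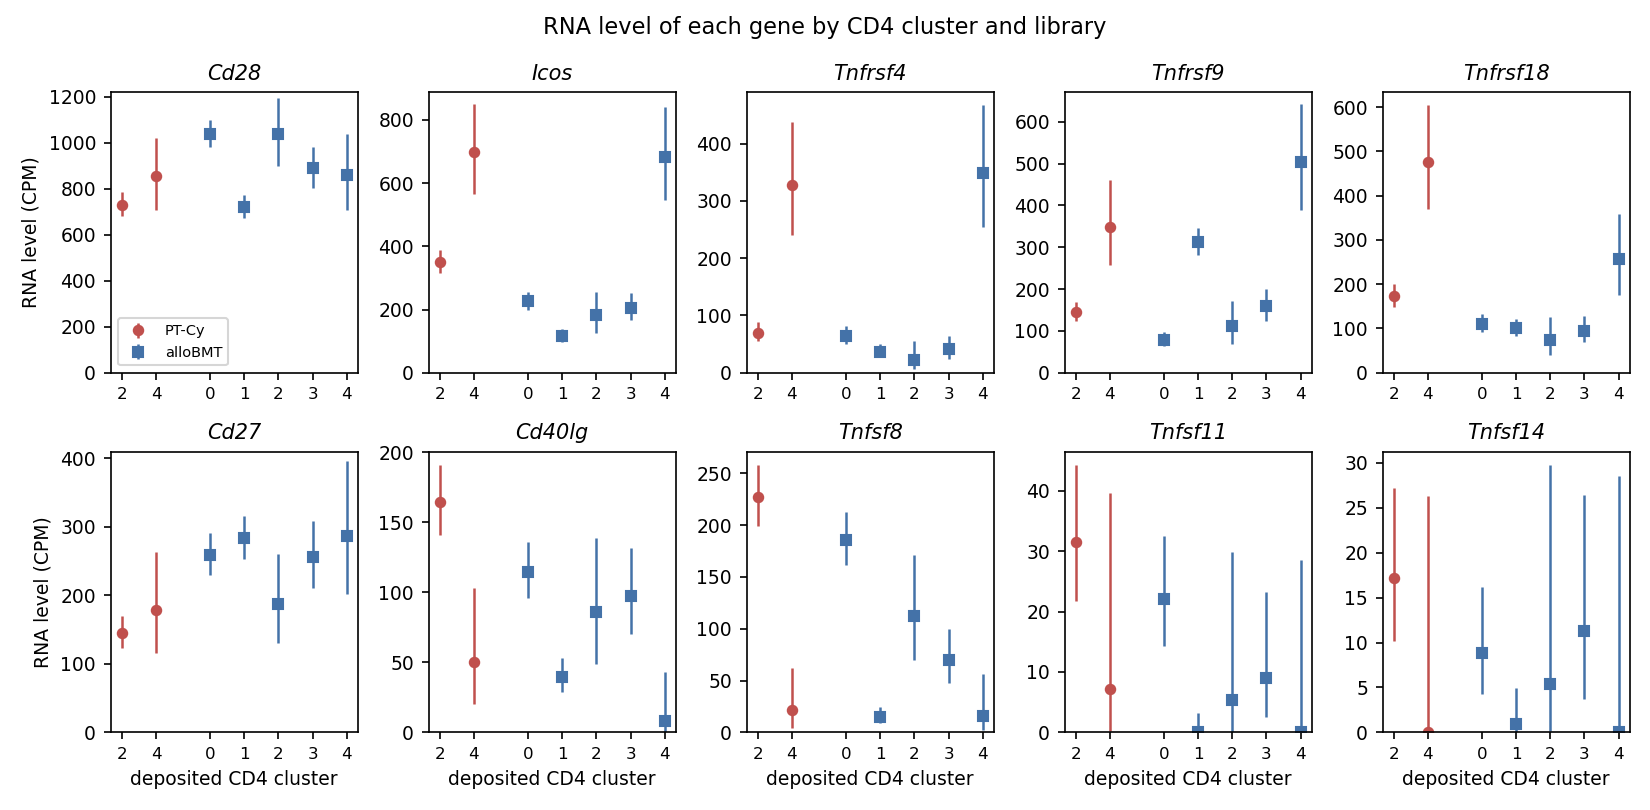
RNA level in CPM (linear axes from 0, a scale of its own for each gene) of the 10 genes in the deposited CD4 clusters with at least 30 cells of a library, PT-Cy (red circles) left of alloBMT (blue squares); bars are exact Poisson 95% intervals. Icos, Tnfrsf4, Tnfrsf9 and Tnfrsf18 have their highest level in cluster 4 of each library. Cd40lg, Tnfsf8 and Tnfsf11 are high in PT-Cy cluster 2 and alloBMT cluster 0 and low in clusters 1 and 4. Tnfsf14, with few UMIs, is also low in clusters 1 and 4 but has its highest alloBMT level in cluster 3.

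The plot of RNA level by cluster shows 2 opposed patterns. Clusters were built by the authors from these cells, so their levels are a description. Cluster 4, in which Foxp3, the lineage factor of regulatory T cells, was concentrated, had the highest Icos, Tnfrsf4, Tnfrsf9 and Tnfrsf18 of its library. Tnfrsf4 stood at 328 CPM in cluster 4 and 69.7 CPM in cluster 2 of PT-Cy, 4.70-fold higher (log2 ratio 2.23, 1.67 to 2.78). In alloBMT it stood at 349 CPM in cluster 4 and 47.3 CPM over clusters 0 to 3, 7.38-fold higher (2.88, 2.36 to 3.38). Tnfrsf18 stood at 477 CPM in cluster 4 and 174 CPM in cluster 2 of PT-Cy, and at 256 CPM in cluster 4 and 102 CPM in clusters 0 to 3 of alloBMT. Icos stood at 698 and 350 CPM in those PT-Cy clusters and at 682 and 177 CPM in the alloBMT ones.

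Tnfrsf9 followed the same order in cluster 4 but also marked cluster 1, a cluster without PT-Cy cells. It stood at 349 CPM in cluster 4 and 145 CPM in cluster 2 of PT-Cy. In alloBMT its order was 503.97 CPM in cluster 4, 312 CPM in cluster 1, 159 CPM in cluster 3, 112 CPM in cluster 2 and 79.2 CPM in cluster 0. The intervals of clusters 3 and 2 and those of clusters 2 and 0 overlapped, while those of clusters 4 and 1, and of clusters 1 and 3, did not.

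The ligands were low in the clusters where Tnfrsf9 was high. Cd40lg stood at 164 CPM in cluster 2 and 49.8 CPM in cluster 4 of PT-Cy, and at 114 CPM in cluster 0, 97.4 in cluster 3, 85.5 in cluster 2, 39.7 in cluster 1 and 7.75 CPM in cluster 4 of alloBMT, where cluster 4 held 1 UMI. Tnfsf8 stood at 227 CPM in cluster 2 and 21.4 CPM in cluster 4 of PT-Cy. In alloBMT it stood at 186 CPM in cluster 0, 112 in cluster 2, 70.2 in cluster 3, 15.5 in cluster 4 and 14.99 CPM in cluster 1. Tnfsf11 had 33 UMIs in cluster 2 and 1 in cluster 4 of PT-Cy, and 25 of its 30 alloBMT UMIs came from cluster 0 and 0 from cluster 1. Tnfsf14 had 18 UMIs in cluster 2 and 0 in cluster 4 of PT-Cy, and 10 in cluster 0 and 1 in cluster 1 of alloBMT. Its highest alloBMT level was in cluster 3, at 11.3 CPM from 5 UMIs, beside 8.80 CPM in cluster 0.

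Cd28 and Cd27 had no such pattern. Cd28 lay at 731 CPM in cluster 2 and 855 CPM in cluster 4 of PT-Cy and between 721 CPM (cluster 1) and 1038 CPM (cluster 0) in alloBMT. Cd27 lay at 145 and 178 CPM in the PT-Cy clusters and between 187 CPM (cluster 2) and 287 CPM (cluster 4) in alloBMT.

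Within a cluster both libraries could be compared only in cluster 2, whose cells express division genes, and in cluster 4. In cluster 2, with 238 PT-Cy and 42 alloBMT cells, 9 genes had at least 20 UMIs over both libraries. Of these, 6 were at least 1.5-fold higher in PT-Cy, against 23.1% of all genes at that depth, and 0 were lower, against 13.5%. PT-Cy gave 1046728 UMIs of this cluster and alloBMT 187084. Tnfrsf4, Tnfrsf18, Cd40lg and Tnfsf11 had under 20 UMIs in alloBMT and passed the minimum through PT-Cy, where they were higher. The counts are thus a description only. The log2 ratios there were 1.22 (0.43 to 2.12) for Tnfrsf18, 1.02 (0.37 to 1.74) for Tnfsf8, 0.94 (0.44 to 1.496) for Icos and 0.94 (0.20 to 1.78) for Cd40lg. Tnfrsf4 had 73 UMIs in PT-Cy and 4 in alloBMT cluster 2 (1.71, 0.29 to 3.62), and Tnfsf11 had 33 and 1 (2.56, -0.02 to 7.91). Cd28 was lower in PT-Cy (-0.50, -0.73 to -0.27). Cd27 had a log2 ratio of -0.37 with an interval of -0.90 to 0.21, so its difference over all CD4 cells was not resolved inside this cluster. Division markers stood at 2331 CPM in PT-Cy and 2512 CPM in alloBMT cluster 2, while the neutrophil markers stood at 262 and 16.0 CPM and the erythroid ones at 910.5 and 150 CPM. Their part in the ratios was not tested.

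In cluster 4, with 31 PT-Cy and 34 alloBMT cells, 1 of 6 genes at that depth was 1.5-fold higher, against 17.3% of all genes, and 1 was lower, against 16.5%. Tnfrsf18 was the higher one, with 67 UMIs in PT-Cy and 33 in alloBMT cells (0.90, 0.28 to 1.55). Icos (0.03, -0.40 to 0.46), Tnfrsf4 (-0.09, -0.72 to 0.53) and Cd28 (-0.01, -0.39 to 0.38) had ratios near 0 with wide intervals. Cd27 was the one past 1.5-fold in the other direction, but its interval included 0 (-0.69, -1.48 to 0.08). Tnfrsf9 stood between (-0.53, -1.10 to 0.03). In this cluster the division markers stood at 1382 CPM in PT-Cy and 357 CPM in alloBMT. The erythroid markers stood at 591 and 163 CPM, the neutrophil ones at 78.3 and 31.0 CPM and the myeloid ones at 207 and 194 CPM. Their part in the cluster 4 ratios was not tested.

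Detection of pairs of genes was also counted in single cells. After thinning, Tnfrsf18 was found in 48.7% of PT-Cy cells with a Tnfrsf4 UMI and in 25.5% of those without one, and in 43.9% and 17.5% of alloBMT cells. Tnfrsf9 was found in 9.86% of PT-Cy cells with a Cd40lg UMI and 28.7% of those without, and in 13.9% and 25.0% of alloBMT cells. Tnfsf8 was found in 32.4% of PT-Cy cells with Cd40lg and 19.1% of those without, and in 18.8% and 5.76% of alloBMT cells. Tnfsf8 was found in 19.7% of PT-Cy cells with a Tnfrsf9 UMI and 23.7% of those without, and in 5.61% and 7.89% of alloBMT cells. Tnfrsf9 was found in 33.3% of PT-Cy cells with Tnfrsf4 and 21.8% of those without, and in 31.7% and 22.7% of alloBMT cells. Icos was found in 47.5% of PT-Cy cells with Tnfsf8 and 42.5% of those without, and in 49.2% and 26.4% of alloBMT cells. Cd27 was found in 15.5% of PT-Cy cells with Cd40lg and 26.1% of those without, and in 25.7% and 42.4% of alloBMT cells. Exact binomial intervals of the paired shares overlapped in both libraries for Tnfsf8 by Tnfrsf9 and for Tnfrsf9 by Tnfrsf4. They also overlapped in PT-Cy for Icos by Tnfsf8, Tnfsf8 by Cd40lg and Cd27 by Cd40lg, and in alloBMT for Tnfrsf9 by Cd40lg.

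Levels were correlated over the 7 sets of 1 cluster and 1 library (Pearson r of log2(CPM + 10)). Tnfrsf4 and Tnfrsf18 had the highest r of any pair among the 10 (0.94), with Icos and Tnfrsf4 next (0.93). Tnfsf8 went with Tnfsf14 (0.90) and Tnfsf11 (0.88), and opposite to Tnfrsf9 (-0.91). Of 5950 other genes with at least 100 UMIs, the nearest to Icos were Grap, Cyth1 and Ly6a (r of 0.993 to 0.996), to Tnfrsf4 Rab11fip1, Bdp1 and Crtc3 (0.98 to 0.99), and to Tnfrsf18 Wdr1, Hipk2 and Cdc37 (0.98 to 0.99). The nearest to Tnfrsf9 were Tnfaip8, Adap1 and Tnpo1 (0.94 to 0.98), and to Tnfsf8 Nfkbiz, Rnf19b and Cul5 (0.94 to 0.95). Cd28 was nearest to Trerf1, Ppp2ca and Aim2 (0.90 to 0.92) and Cd27 to Atp8b3, Heca and Ap5m1 (0.97 to 0.99). With 7 sets that share 2 libraries, such values are a description.

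Other genes of these pathways were read from 4 lists, with genes of at least 20 UMIs counted and 1.5-fold as the size, which 18.7% of 10122 genes passed upward in PT-Cy and 11.9% downward. Of 13 further TNF ligands 7 had that depth, 4 were higher in PT-Cy and 2 lower, with a median log2 ratio of 0.91 beside 0.06 for all genes. Ltb, a subunit of membrane lymphotoxin, had 746 UMIs in PT-Cy and 954 in alloBMT cells (0.91, 0.77 to 1.05). Fasl, the death ligand of cytotoxic cells, had 103 and 615 UMIs (-1.32, -1.63 to -1.01). The other ligands past 1.5-fold, named after their values were seen, had few UMIs: Lta and Tnfsf4, the OX40 ligand, each had 22 in PT-Cy and 10 in alloBMT cells, Tnf had 20 and 23, and Tnfsf13b, lower in PT-Cy with an interval that included 0, had 14 and 54. Tnfsf10 was nearly level (-0.10, -0.53 to 0.32). Lta and Tnfsf4 passed the minimum of 20 UMIs through PT-Cy and Tnfsf13b through alloBMT, the library where each was higher. The counts and the median are thus a description only.

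Of 16 further TNF receptors 7 had that depth, 3 were higher and 1 lower, with a median of 0.02. The death receptor Fas had 57 UMIs in PT-Cy and 66 in alloBMT cells (1.05, 0.51 to 1.58), and Tnfrsf1b, the second TNF receptor, 140 and 389 (-0.21, -0.50 to 0.07). The other receptors past 1.5-fold, also named after their values were seen, were Tnfrsf25 (43 and 13 UMIs) and Tnfrsf1a (26 and 36), both higher, and Tnfrsf14, the receptor of Tnfsf14, which was lower (12 and 62). Tnfrsf25 passed the minimum through PT-Cy and Tnfrsf14 through alloBMT, the library where each was higher. These counts are also a description only.

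All 20 adaptors and NF-kB genes had that depth, and 16 stayed within 1.5-fold, with a median of 0.11. Traf2 (0.96, 0.37 to 1.54) and Traf3 (0.61, 0.43 to 0.78) were higher in PT-Cy, and Traf5 (-0.76, -1.07 to -0.46) and the NF-kB inhibitor Tnfaip3 (-0.89, -1.03 to -0.76) were lower. Of the 22 genes of the CD28 pathway 4 were higher and 5 lower, with a median of 0.02. Icosl, among the higher ones, had 24 UMIs in PT-Cy and 13 in alloBMT cells and passed the minimum through PT-Cy. Cd80, a CD28 ligand (1.03, 0.68 to 1.37), and the kinase gene Akt1 (0.88, 0.35 to 1.40) were higher, while the kinase gene Fyn (-1.20, -1.29 to -1.12) and the transcription factor gene Nfatc1 (-1.23, -1.40 to -1.06) were lower.

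Chromatin accessibility of a locus was taken as the summed counts of every peak overlapping the gene or within 10 kb, 4 to 13 peaks a gene. In the CD4 set, 0 of the 10 loci were at least 1.5-fold more open in PT-Cy, against 3.14% of 14381 loci with at least 100 counts, and 0 were 1.5-fold less open, against 2.21%. In the CD8 set 1 locus was 1.5-fold more open, against 2.01% of 15741 loci, and 0 were less open, against 1.90%. Smaller differences passed counting error. TMM scaling lowered every CD4 log2 ratio of accessibility by 0.20 and every CD8 one by 0.09, and the loci named here kept their direction under it unless stated.

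**Figure D2:**
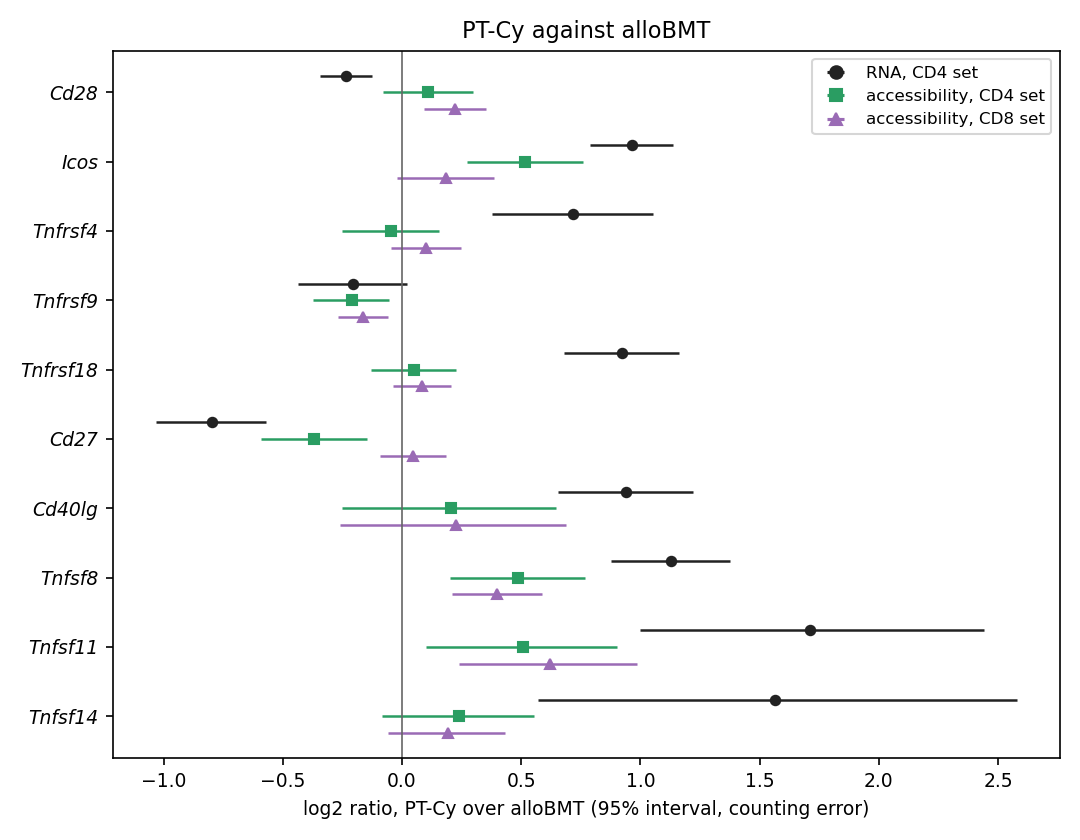
Log2 ratio of PT-Cy to alloBMT for RNA in the CD4 set (black circles) and for accessibility within 10 kb of the gene in the CD4 set (green squares) and the CD8 set (purple triangles), with exact conditional 95% intervals of counting error. RNA ratios of Icos, Tnfrsf18 and the 4 ligands lie near 1 or above, while accessibility ratios stay between -0.37 and 0.62.

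Icos had 185 counts (120.2 CPM) in PT-Cy and 586 counts (84.0 CPM) in alloBMT CD4 cells, a log2 ratio of 0.52 (0.27 to 0.76), and 0.18 (-0.02 to 0.38) in CD8 cells. Tnfsf8 had 138 counts (89.7 CPM) in PT-Cy and 446 counts (63.9 CPM) in alloBMT CD4 cells, a log2 ratio of 0.49 (0.20 to 0.77). Its CD8 ratio was 0.40 (0.21 to 0.59), from 288 PT-Cy and 1163 alloBMT counts. Tnfsf11 had 70 counts (45.5 CPM) and 223 counts (32.0 CPM) in CD4 cells, a ratio of 0.51 (0.10 to 0.90). The TMM shift of 0.20 is larger than the lower limit of this interval, which would then include 0. It is about equal to the lower limit of Tnfsf8 in CD4 cells. Tnfsf11 was the locus past 1.5-fold in CD8 cells, with 79 counts (25.3 CPM) in PT-Cy and 274 (16.5 CPM) in alloBMT (0.62, 0.24 to 0.98). For Icos and Tnfsf8 RNA and accessibility were both higher in PT-Cy CD4 cells, while the RNA of Tnfsf11 rests on few UMIs.

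Cd27 had 197 counts (128 CPM) in PT-Cy and 1152 counts (165 CPM) in alloBMT CD4 cells, a log2 ratio of -0.37 (-0.59 to -0.15), the same direction as its RNA. In CD8 cells the Cd27 ratio was 0.05 (-0.09 to 0.18), or -0.04 with TMM scaling. Tnfrsf9 was less open in PT-Cy in both sets, at -0.21 (-0.37 to -0.05) in CD4 and -0.16 (-0.27 to -0.06) in CD8 cells. Cd28 was at 0.11 (-0.08 to 0.30) in CD4 cells, or -0.09 with TMM scaling, and at 0.22 (0.09 to 0.35) in CD8 cells.

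Tnfrsf18 and Tnfrsf4 had higher RNA in PT-Cy without a matching difference in accessibility. The Tnfrsf18 locus had 323 counts (209.9 CPM) in PT-Cy and 1414 counts (203 CPM) in alloBMT CD4 cells, a ratio of 0.05 (-0.13 to 0.23), or -0.15 with TMM scaling. The Tnfrsf4 locus had 243 counts (158 CPM) and 1138 counts (163 CPM), a ratio of -0.05 (-0.25 to 0.15), and with peaks within 2 kb alone it was -0.54. These genes are neighbours on chromosome 4, and their loci share 2 peaks. Every other peak of the Tnfrsf4 locus, the promoter peak and all those within 2 kb among them, also overlaps Sdf4. No peak of the locus can thus be assigned to Tnfrsf4 alone. Cd40lg (0.21, -0.25 to 0.64, with 54 PT-Cy and 212 alloBMT counts) and Tnfsf14 (0.24, -0.09 to 0.56) were not resolved at this depth.

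Of the 80 peaks, 34 in the CD4 and 49 in the CD8 set had at least 100 counts. In CD4 cells 0 were 2-fold more open in PT-Cy, against 0.751% of 19971 peaks, and 1 was 2-fold less open, against 3.82%. In CD8 cells both counts were 0, against 1.01% and 3.27% of 35872 peaks. The 1 peak lay inside Tnfrsf9 at chr4:150921006-150921711, with 16 counts in PT-Cy and 154 in alloBMT CD4 cells (-1.09, -1.93 to -0.34) and 70 and 443 in CD8 cells (-0.25, -0.63 to 0.12). The peak with the internal Tnfrsf9 start, the window with AP-1 and NF-kB motifs, was nearly level (chr4:150927166-150928152; 0.15, -0.37 to 0.65 in CD4 cells). The most open Tnfrsf9 peak, chr4:150924032-150925282, had 76 counts in PT-Cy and 426 in alloBMT CD4 cells (-0.31, -0.68 to 0.05).

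The most open Tnfsf8 peak, inside the gene at chr4:63841521-63842898, had 45 counts in PT-Cy and 125 in alloBMT CD4 cells (0.71, 0.18 to 1.21) and 85 and 381 in CD8 cells (0.25, -0.11 to 0.59). In Icos the most open peak, chr1:60989625-60991030, was nearly level in CD4 cells (0.09, -0.40 to 0.55). The Tnfsf11 promoter peak, chr14:78306680-78308318, which holds the printed bases, had 49 and 163 counts in CD4 cells (0.45, -0.05 to 0.91) and 50 and 172 in CD8 cells (0.63, 0.15 to 1.09). The remaining most open peaks had CD4 intervals that included 0: chr1:60745551-60746542 at Cd28 (0.22), chr4:156021135-156022755 between Tnfrsf4 and Tnfrsf18 (0.23), chr6:125231090-125232362 beside Cd27 within Tapbpl (-0.40), chrX:57215926-57216832 in Cd40lg (-0.32) and chr17:57193643-57195150 at the Tnfsf14 promoter (0.03).

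Of the 10 loci, Cd40lg and Tnfsf11 had the highest ratios of CD4 to CD8 cells, in both libraries. The sets come from the same library and this ratio does not compare libraries. Over 10 kb, Cd40lg had 35.1 CPM in CD4 and 15.1 CPM in CD8 cells of PT-Cy (log2 ratio 1.22, 0.63 to 1.81), and 30.4 and 12.9 CPM in alloBMT (1.24, 0.96 to 1.52). Tnfsf11 had 45.5 CPM in CD4 and 25.3 CPM in CD8 cells of PT-Cy (0.84, 0.36 to 1.33), and 32.0 and 16.5 CPM in alloBMT (0.95, 0.69 to 1.21). At 1.5-fold these were past the size in both libraries, and Icos was past it in PT-Cy (0.63, 0.34 to 0.91) but not in alloBMT (0.29, 0.15 to 0.44), against 1.11% of 13289 loci in PT-Cy and 0.559% of 15930 in alloBMT. TMM scaling put Icos in PT-Cy at 0.53, under 1.5-fold. None of the 10 was 1.5-fold less open in CD4 cells, against 1.55% and 2.08%. The difference between the libraries was not tested. Cd4 itself had ratios of 0.43 in PT-Cy and 0.73 in alloBMT, and Cd8a of -0.98 and -2.45, so the sets were less apart at Cd8a in PT-Cy.

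**Figure D3:**
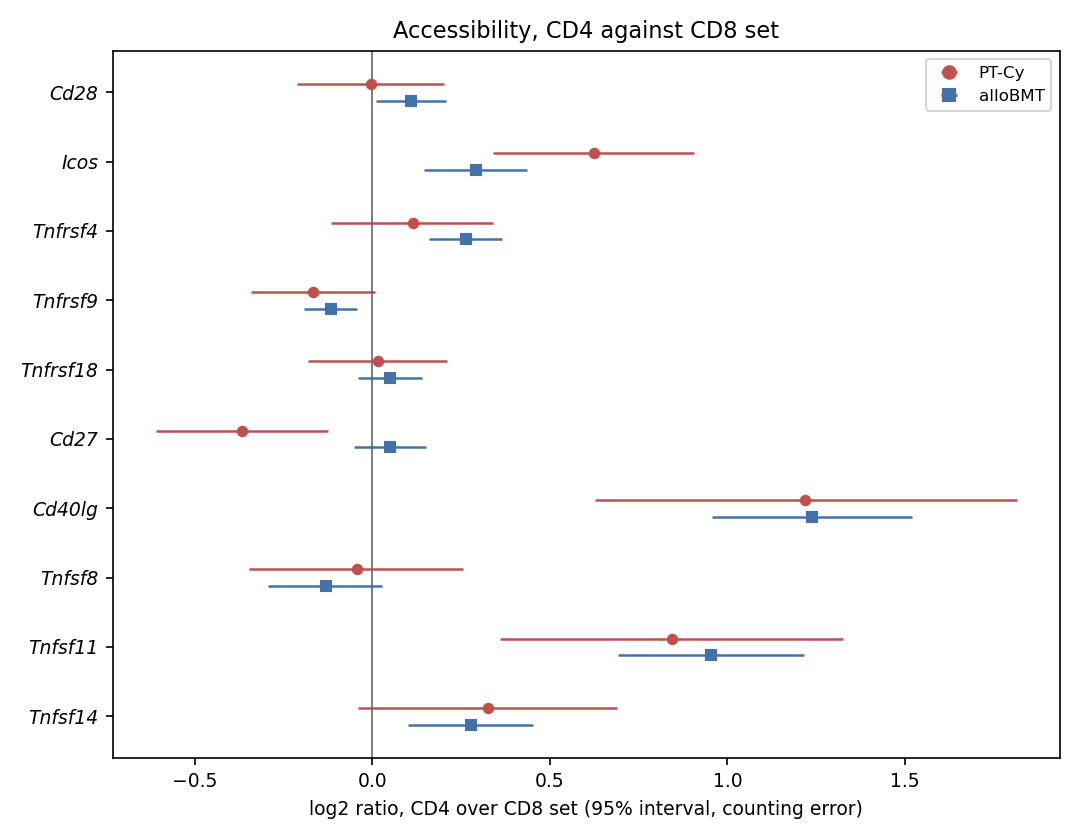
Log2 ratio of accessibility within 10 kb of each gene in the CD4 set over the CD8 set, in PT-Cy (red circles) and alloBMT (blue squares), with exact conditional 95% intervals of counting error. Cd40lg and Tnfsf11 lie at 0.84 or more in both libraries, while Tnfsf8 lies near 0.

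Tnfsf8 was no more open in CD4 than in CD8 cells, with ratios of -0.04 (-0.35 to 0.25) in PT-Cy and -0.13 (-0.29 to 0.03) in alloBMT. Tnfsf14 was at 0.33 (-0.04 to 0.69) and 0.28 (0.10 to 0.45). Tnfrsf9 was slightly less open in CD4 cells (-0.17, -0.34 to 0.01 in PT-Cy and -0.12, -0.19 to -0.04 in alloBMT), and Cd27 was less open in CD4 cells of PT-Cy (-0.37, -0.61 to -0.13) but not of alloBMT (0.05, -0.05 to 0.15). The Tnfsf11 promoter peak alone had ratios of 0.99 (0.39 to 1.59) in PT-Cy and 1.17 (0.86 to 1.49) in alloBMT. The Tnfrsf4 promoter peak, chr4:156013429-156014263, had 177 counts in CD4 and 220 in CD8 cells of alloBMT (0.94, 0.64 to 1.23), and 31 and 50 in PT-Cy (0.33, -0.37 to 1.004).

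Accessibility of the ligand loci in the clusters was read in alloBMT, where clusters 0 and 1 had enough cells. Tnfsf11 had 22.1 CPM in cluster 1 and 45.6 CPM in cluster 0 (log2 ratio -1.04, -1.49 to -0.61), alongside 0 RNA UMIs in cluster 1 and 25 in cluster 0. Cd40lg had 25.6 CPM in cluster 1 and 37.8 CPM in cluster 0 (-0.56, -1.002 to -0.13), and 1 count in cluster 4 (3.09 CPM). Tnfrsf9 had 330.2 CPM in cluster 1 and 264 CPM in cluster 0 (0.32, 0.18 to 0.46), alongside an RNA ratio of 1.98 (1.64 to 2.33).

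**Figure D4:**
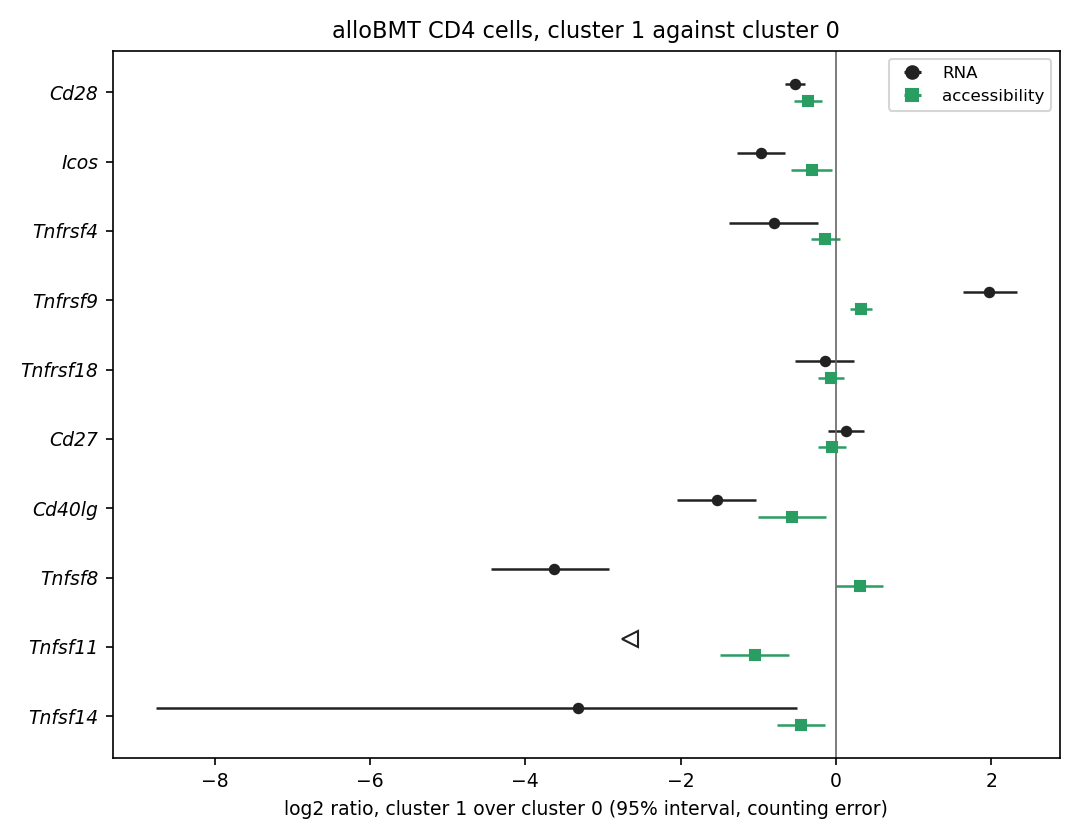
Log2 ratio of cluster 1 to cluster 0 in alloBMT CD4 cells for RNA (black circles) and for accessibility within 10 kb (green squares), with exact conditional 95% intervals of counting error; the open triangle marks the upper limit for Tnfsf11, which had 0 RNA UMIs in cluster 1. Tnfsf8 lies at -3.63 for RNA and 0.31 for accessibility.

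Tnfsf8 departed from this. Its RNA stood at 14.99 CPM (17 UMIs) in cluster 1 and 186 CPM (211 UMIs) in cluster 0, 12.4-fold lower in cluster 1 (-3.63, -4.44 to -2.92), while its locus had 71.7 CPM in cluster 1 and 58.0 CPM in cluster 0 (0.31, 0.01 to 0.61). Its peaks did not move together. The peak chr4:63841521-63842898 had 76 counts in cluster 1 and 31 in cluster 0 (1.10, 0.48 to 1.75), and chr4:63840405-63840816 had 21 and 5 (1.87, 0.43 to 3.64). In contrast, chr4:63853750-63854109 had 4 and 15 counts (-2.10, -4.15 to -0.45), and the peak at the start of the gene, chr4:63860842-63861523, had 21 and 32 (-0.81, -1.67 to 0.03). Among the 10 genes, Tnfsf8 was the only one whose RNA and accessibility intervals lay on opposite sides of 0 in this comparison. Its accessibility interval began at 0.01, and TMM scaling was not run between clusters. A downward shift of the size that TMM scaling made between the libraries would bring 0 inside that interval.

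RNA and chromatin of the same cell were joined for the 8 genes with at least 30 cells on each side, by comparing the locus in CD4 cells with at least 1 UMI of the gene and in cells without. Of the 16 pairs of gene and library, 8 intervals lay above 0 and 0 below. The same count over all genes is not reported here, so these numbers are a description only. Tnfsf8 had 117 CPM in the 99 PT-Cy cells with its RNA and 75.0 CPM in the 185 without (0.64, 0.13 to 1.14), and 138 CPM in 82 alloBMT cells with it and 56.6 CPM in 844 without (1.28, 0.93 to 1.63). Cd40lg had 48.7 and 27.0 CPM in PT-Cy (0.85, 0.03 to 1.68) and 55.7 and 25.3 CPM in alloBMT (1.14, 0.69 to 1.57). Both ligand loci were thus more open in the cells where the RNA was detected, in each library.

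**Figure D5:**
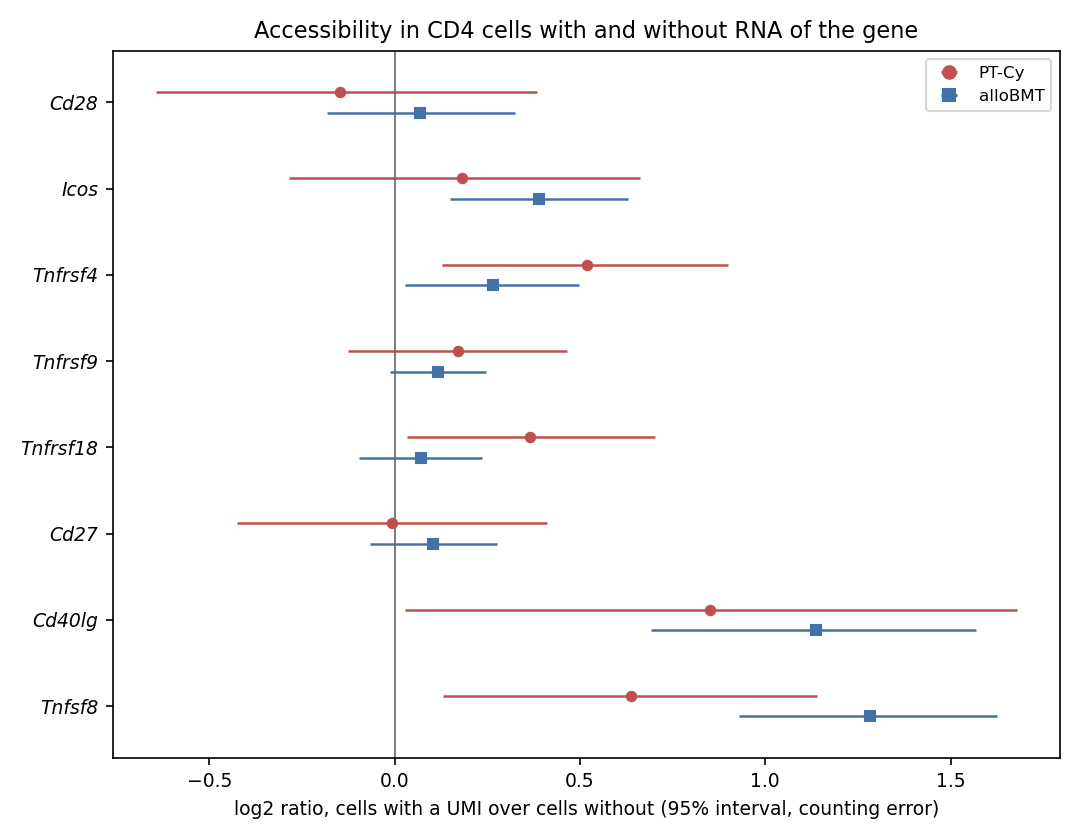
Log2 ratio of accessibility within 10 kb of a gene in CD4 cells with at least 1 UMI of that gene over cells without, in PT-Cy (red circles) and alloBMT (blue squares), with exact conditional 95% intervals of counting error. Cd40lg and Tnfsf8 lie between 0.64 and 1.28, while Cd28 and Cd27 lie near 0.

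Receptor loci differed less. Tnfrsf4 was at 0.52 (0.13 to 0.90) in PT-Cy and 0.27 (0.03 to 0.50) in alloBMT, Tnfrsf18 at 0.37 (0.03 to 0.70) and 0.07 (-0.09 to 0.24), and Icos at 0.18 (-0.28 to 0.66) and 0.39 (0.15 to 0.63). Tnfrsf9 was at 0.17 (-0.13 to 0.46) and 0.12 (-0.01 to 0.25), and the intervals of Cd28 and Cd27 included 0 in both libraries. Inside cluster 0 of alloBMT, the 54 cells with Tnfsf8 RNA had 154 CPM at the locus and the 320 without had 41.4 CPM (1.90, 1.41 to 2.37). The PT-Cy cluster 2 values were 119 and 72.8 CPM (0.71, 0.17 to 1.25). Cd40lg in cluster 0 of alloBMT had 60.7 and 30.8 CPM (0.98, 0.37 to 1.58), and in cluster 2 of PT-Cy 45.7 and 28.2 CPM, where the interval included 0 (0.69, -0.19 to 1.59). In cluster 1 of alloBMT it had 47.0 and 22.8 CPM (1.04, 0.18 to 1.83). Among the ligands, the interval within a cluster lay above 0 for Tnfsf8 in both libraries and for Cd40lg in alloBMT only. Some receptor intervals within clusters also lay above 0. In PT-Cy cluster 2 these were Tnfrsf4 (0.68, 0.26 to 1.09), Tnfrsf18 (0.38, 0.03 to 0.74) and Tnfrsf9 (0.36, 0.04 to 0.67). In alloBMT cluster 0 they were Icos (0.59, 0.23 to 0.96), Cd27 (0.35, 0.08 to 0.62) and Tnfrsf18 (0.29, 0.02 to 0.54), and in cluster 1 Icos (0.43, 0.04 to 0.81). The other receptor intervals included 0, among them Tnfrsf4 in alloBMT clusters 0 and 1. Cells with a UMI were deeper in every pair of gene and library except Tnfsf8 in PT-Cy. The median total there was 3863 UMIs in cells with Tnfsf8 and 3957 in those without, but 3311 and 2730.5 in alloBMT cells. In PT-Cy the medians were 4330 and 3399 for Cd40lg, 5014.5 and 3559.5 for Tnfrsf4 and 4631 and 3315 for Tnfrsf18. The part of depth in these ratios was not tested.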

How the data were processed

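The study measured RNA and open chromatin in the same nuclei of bone marrow T cells. The authors deposited raw counts for every gene and peak in every cell, as their whole-number values and the file headers show, and a per-cell table whose dataset, set and cluster columns were used here. Of its 58 columns, 55 were not used. Cell Ranger ARC 1.0.1 and MACS2 were used, per the submitters' processing notes. Those notes name the build GRCh38, but gene names are mouse, and 31.2% of 43766 gene ends of GRCm38.p6 lay in a peak, against 6.53% when shifted by 20000 bases and 6.16% when shifted by 200000, so peaks were read as GRCm38. The sources used here do not give how the authors filtered cells, handled doublets or built clusters, and no doublet caller was run.

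The 10 genes, the 4 lists, the motifs and the size rules were chosen with earlier results of these data known. Named genes were all 10, the 3 nearest genes by Pearson r for each with at least 100 UMIs, and from each list up to 4 genes whose UMIs reached 100 and whose log2 ratios were the furthest from 0. The nearest genes to Cd40lg are not reported here. Named peaks were the most open of each gene and those past 2-fold, and other peaks and clusters were added after their values were seen.

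Counts were summed per library and set, cluster or cell class and scaled to CPM. Ratios have exact conditional binomial (Clopper-Pearson) 95% intervals, levels have Poisson intervals and shares have binomial ones. Cells were thinned to the 10th percentile of UMIs. Clusters needed 30 cells. The computation was tested on simulated data. Alternatives were edgeR 4.0.16 TMM and DESeq2 1.42.0 size factors, other minimums and windows, per-cell means, binary peaks and other cell subsets. The tools were R 4.3.3 and, under Python 3.11.15, scipy 1.17.1, pandas 2.3.3, matplotlib 3.10.9 and numpy 2.4.6.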

Additional observations from a re-analysis of the deposited data

Results flagged for a closer look

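A single peak had ratios on opposite sides of 0 in the CD4 and CD8 sets, each past counting error. It lies at chr4:156008066-156008920 within Sdf4, 4675 bases from Tnfrsf4. In CD4 cells it had 23 counts in PT-Cy and 168 in alloBMT, a log2 ratio of -0.69 (-1.39 to -0.06), and in CD8 cells 45 counts in PT-Cy and 158 in alloBMT, a ratio of 0.60 (0.09 to 1.09). The difference between the sets was not tested, and the peak was singled out among 80 after its values were seen. With each cell counted once per peak the ratios were -0.48 and 0.56, with TMM scaling -0.89 and 0.51, and without the 5% of cells with the most ATAC counts -0.69 and 0.72. In alloBMT the peak was more open in CD4 than in CD8 cells (1.34, 1.02 to 1.66), and in PT-Cy it was not resolved (0.05, -0.74 to 0.81).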

How the results depend on the processing

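Directions among the RNA ratios of the 10 genes were the same under all 6 alternatives that were run for them. The number of genes with 2-fold higher RNA was 1 and became 0 with TMM or DESeq2 factors and 3 with a minimum of 20 UMIs, and the number 2-fold lower was 0 and became 1 with DESeq2 factors and 1 in cells with no Cd8b1 UMI, where Cd27 stood at -1.09. In the CD4 set 1 locus was 1.5-fold more open without the 5% of cells with the most ATAC counts, against 0, and 2-fold less open peaks numbered 3 with a minimum of 50 counts and 2 with TMM factors, against 1. In the CD8 set the 1 locus became 0 with binary counts or TMM factors, and a minimum of 50 counts gave 1 peak more and 1 less open, against 0 each. Shares over all genes, loci and peaks under these alternatives are not reported here, so the changed counts are a description only. The share of cells with a UMI, PT-Cy minus alloBMT, turned from positive to negative after thinning for Cd28 (-2.79 percentage points) and Tnfrsf9 (-0.0623). No paired analysis was possible because each group has 1 library. Tnfsf11, Tnfsf14 and Cd40lg accessibility are limited by depth.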
